A study of Mus musculus with 38 samples.

Results

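The Inhba knockout (KO) was compared with wild type (WT) in mouse gonocytes at embryonic day 13.5 (E13.5), across all genes of the count table. Gonocytes are the germ cells of the fetal testis. The comparison holds 4 KO and 3 WT animals, which are 7 of the 19 animals of the series, each with 1 column of counts. KO animals were 696.6, 831.2, 832.1 and 928.1, WT animals were 803.2, 876.4 and 900.2, and values of single animals are listed in that order. Genotypes were read from column names and titles. The genotype field of animal 928.1 says otherwise, as does that of 4 E15.5 animals. A figure legend of the study gives 3 KO and 4 WT for this comparison, the reverse of the numbers used here.

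All embryos carried the Oct4-Gfp reporter, which makes germ cells fluorescent, and had the mixed strain label C57/Bl6/129svJ. They came from heterozygous timed matings of an Inhba line on a C57/Bl6 background crossed with Oct4-eGfp mice. GFP-positive cells were sorted by FACS, and the testes of 1 embryo made 1 sample. The KO lacks Inhba in the whole embryo, so that gonocytes and somatic cells were both exposed to the loss. Another WT gonocyte sample of this age was excluded by the authors as possibly contaminated or swapped. The E15.5 animals used beside them were 4 KO and 4 WT from the same cross.

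Inhba encodes the subunit that pairs to form activin A, a ligand of the TGFβ family. Activins and the related ligand Nodal bind type II and type I receptor kinases, which phosphorylate SMAD2 and SMAD3, and these enter the nucleus with SMAD4. In the fetal mouse testis activin A is made by somatic cells and drives Sertoli cell proliferation, while gonocytes of this age leave the cell cycle and start male differentiation.

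Depth was 17239105 to 19736434 counts in KO and 18931071 to 19791975 counts in WT animals, where 3 counts equal 0.152 to 0.174 cpm (counts scaled so that every library has the same total, the usual CPM unit). The germ cell helicase Ddx4 lay at 452 to 670 cpm in KO and 481 to 559 cpm in WT animals. The somatic genes Sox9 (0.464 to 7.97 cpm in KO, 0.253 to 2.85 cpm in WT) and Nr5a1 (0.232 to 2.60 cpm in KO, 0.152 to 0.898 cpm in WT) were low. Pearson correlations of log2 cpm were 0.961 to 0.979 between KO animals and 0.981 to 0.985 between WT animals. On the first principal component (30.1% of the variance) KO animals 696.6 and 928.1 lay at opposite ends, with all WT animals between them.

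Inhba itself (ENSMUSG00000041324, GRCm38 chromosome 13 from 16011851 to 16031621) gave 11, 7, 12 and 6 counts in the KO animals, against 1, 4 and 2 counts in the WT animals. These are levels of 0.332 to 0.696 cpm in KO and 0.0528 to 0.202 cpm in WT, which did not overlap (exact permutation test, two-sided, p = 0.0571). The smallest p that the 35 regroupings of 7 animals allow is 0.0286. Gonocytes of both genotypes thus had almost no Inhba reads, the table sums reads over the whole gene, and these counts cannot check the genotype.

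Few genes differed by a wide margin. Of 12739 genes above about 2.4 cpm in at least 2 animals, 2 passed an adjusted p under 0.05 with a change of over 1.5-fold (0.0157% of genes tested, edgeR quasi-likelihood test with Benjamini-Hochberg adjustment). Both were higher in KO. With the same fold limit and an unadjusted p under 0.01, 37 genes were higher (0.29% of genes tested) and 10 were lower (0.0785%) in KO, and these 47 are referred to as called genes. All other called genes had adjusted p-values above 0.05, so each is a candidate and not a tested change. In all, 340 genes (2.67% of genes tested) had an unadjusted p under 0.05, of which 211 were higher in KO. With evenly spread p-values, as where no gene differs, that limit would give a larger share. The median log2 fold change of all genes was 0.01.

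Called genes sat low in the range of expression. The 37 higher genes had a median level of 5.87 cpm in KO and 2.25 cpm in WT animals, against a median of 21.9 cpm in KO and 22.2 cpm in WT for all genes tested. None of the 37 had a KO mean above 50 cpm, and 19 had a WT mean under the detection limit of about 2.4 cpm. In 36 of the 37 the lowest KO animal lay above the highest WT animal, and in 8 of the 10 lower genes every KO animal lay below. This pattern is set by the choice of small p-values. Over all genes tested, 2.02% had every KO animal above and 2.02% every KO animal below the WT animals.

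**Figure D1:**
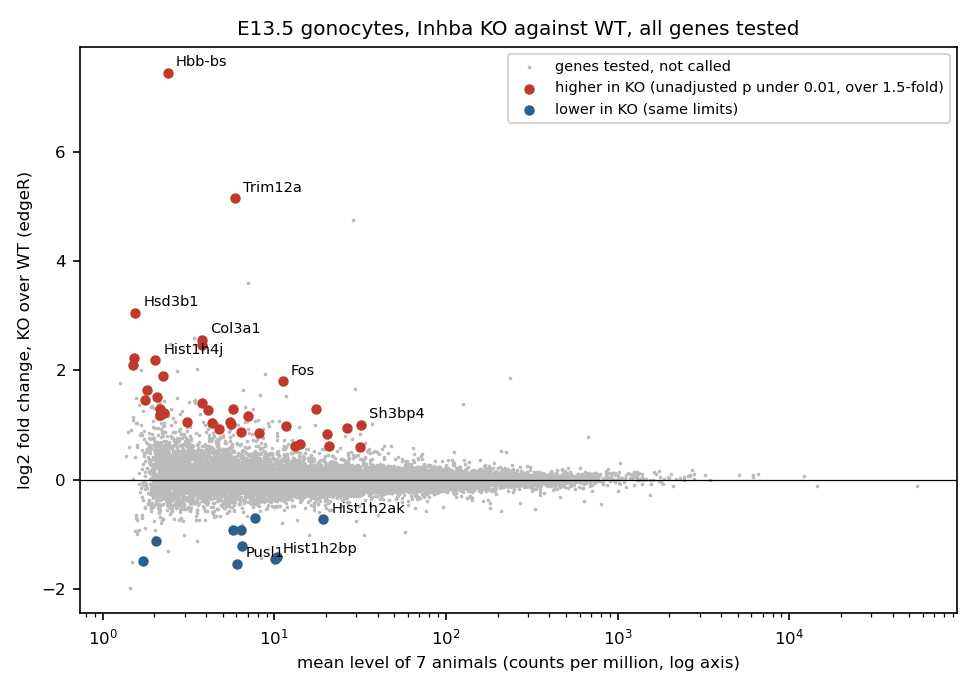
Log2 fold change (KO over WT, edgeR) against the mean level of the 7 animals (cpm, log axis) for the 12739 genes tested; 37 called genes higher in KO are red and 10 lower are blue. The called genes lie at the low end of expression, with Hbb-bs at 7.45 and Trim12a at 5.15 farthest from 0.

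Hbb-bs and Trim12a, both on chromosome 7, were the 2 genes past the adjusted threshold. Hbb-bs encodes an adult beta globin of red blood cells (ENSMUSG00000052305, GRCm38 chromosome 7 from 103826534 to 103828096). It was measured at 4.40, 4.61, 4.99 and 2.66 cpm in KO animals, against 0, 0.0505 and 0 cpm in WT animals. All 4 KO animals therefore had the transcript, and the WT animals together had 1 read of it, against 304 in KO. The ratio of summed levels was 240.4 with an exact counting interval of 42.8 to 9525 (95%), which covers counting error only. The fitted log2 fold change of 7.45 ± 0.64 (SE, adjusted p = 0.00368 in edgeR) rests on a prior count, since WT is at the floor. Every SE of a log2 fold change here is approximate, the fold change divided by the square root of the test's F statistic. For Hbb-bs it is narrower than the counting interval and understates the uncertainty.

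The neighbouring gene Hbb-bt had 30, 32, 34 and 22 counts in KO, against 0, 0 and 0 counts in WT animals. It stayed under the detection limit. Of the 80-base windows of Hbb-bs transcripts, where 80 bases is the read length, 51.2% also occur in Hbb-bt, so reads of this pair are hard to tell apart. Other red cell genes overlapped between genotypes or had few reads. Alas2, the heme synthesis enzyme of red cells, had means of 3.97 cpm in KO and 3.28 cpm in WT (log2 fold change 0.27, unadjusted p = 0.354), the embryonic globin gene Hbb-y had 12, 6, 23 and 5 counts in KO, against 3, 7 and 4 counts in WT animals (exact p = 0.229), Hba-a1 had at most 1 count in any animal, and Hbb-bh1 was at 0 in all 7. Hba-a1 shares 67% of its windows with Hba-a2, so reads of that pair are hard to assign and its low counts say little. Summed over the 12 erythroid markers, KO animals had 7.64 to 13.6 cpm and WT animals 4.23 to 4.42 cpm (exact p = 0.0571). Without Hbb-bs and Hbb-bt, a sum chosen after seeing the data, KO animals had 3.77 to 7.57 cpm and WT animals 4.23 to 4.42 cpm, which overlapped (exact p = 0.314). At E15.5 Hbb-bs had 0.788, 0.240, 1.65 and 0.187 cpm in KO animals 1052.2, 1052.4, 855.1 and 892.2, against 0.0468, 0, 1.45 and 0.211 cpm in WT animals 1064.2, 855.2, 941.3 and 995.1, and the groups overlapped. Fewer cells of a type and less RNA per cell cannot be told apart in sorted bulk samples.

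Trim12a belongs to a cluster of tripartite motif genes (ENSMUSG00000066258, GRCm38 chromosome 7 from 104299894 to 104315466). Its level was 14.9, 12.8, 7.08 and 5.59 cpm in KO, against 0.317, 0.303 and 0.210 cpm in WT animals, which is 5.15 ± 0.47 on the log2 scale (SE, edgeR adjusted p = 0.00368). It was nearly off in every WT animal and on in every KO animal. At E15.5 the same gene was on or off in animals of either genotype. It had 0.172, 0.144, 0.118 and 16.3 cpm in KO animals 1052.2, 1052.4, 855.1 and 892.2, against 5.0, 8.66, 0.107 and 8.99 cpm in WT animals 1064.2, 855.2, 941.3 and 995.1. The E15.5 groups overlapped over their whole range. Trim12a and Hbb-bs lie close together on chromosome 7, and the embryos had a mixed strain label. The strain origin of this region in each animal was not examined. A part of strain background in the levels of both genes was not tested. With all 15 animals in 1 fit, neither Trim12a nor any other gene passed at E13.5. The smallest adjusted p over all genes was 0.966 in that edgeR fit, and 238 genes (1.87%) had an unadjusted p under 0.05.

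Trim12c, its neighbour from 104338754 to 104353362, lay the other way at E13.5. It had 72.0, 34.4, 63.9 and 52.0 cpm in KO, against 83.8, 79.5 and 74.1 cpm in WT animals (log2 fold change -0.52, unadjusted p = 0.018). Of the windows of Trim12a, 5.04% occur in other genes. A called gene of the same chromosome was Ppfibp2, a liprin scaffold gene from 107595207 to 107748583, at 26.5, 35.7, 36.5 and 34.7 cpm in KO, against 20.3, 17.2 and 14.8 cpm in WT animals. The same region holds Nlrp14, which had 8.79, 1.22, 4.58 and 4.87 cpm in KO, against 13, 10.004 and 15.8 cpm in WT animals (unadjusted p = 0.0119) and was not called.

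The promoters of the pair past the adjusted threshold are shown because both transcripts were near 0 in WT. They are 100 bases before the start (RefSeq, GRCm38.p6, minus strand, at chr7:103827929-103828028 for Hbb-bs and chr7:104315496-104315595 for Trim12a). Capitals mark CCAAT on either strand, which 18.9% of all promoters hold in this window. Both of these hold it. They are the reference sequence of C57BL/6J and not that of the embryos.
Hbb-bs: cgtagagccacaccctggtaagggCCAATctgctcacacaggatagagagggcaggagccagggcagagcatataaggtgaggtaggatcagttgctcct
Trim12a: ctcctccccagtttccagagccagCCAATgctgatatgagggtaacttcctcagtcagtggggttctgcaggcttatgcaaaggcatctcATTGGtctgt

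**Figure D2:**
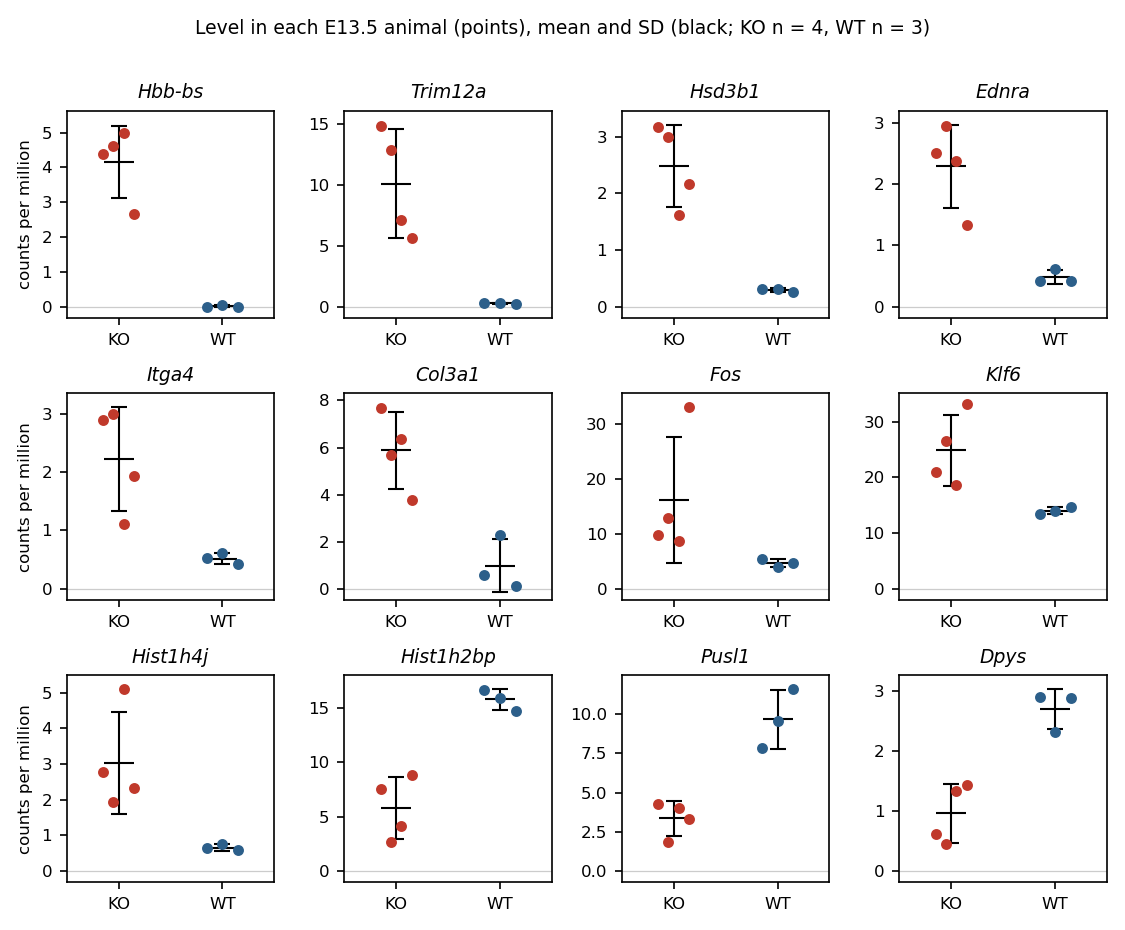
Level in each E13.5 animal (points, cpm, linear axes) of 12 named genes with mean and SD in black, KO (n = 4, red) left of WT (n = 3, blue). KO and WT animals do not overlap for any of the 12, of which Hbb-bs, Trim12a, Hsd3b1, Ednra, Itga4, Col3a1, Fos, Klf6 and Hist1h4j were higher and Hist1h2bp, Pusl1 and Dpys lower in KO. All 12 were picked from the called genes, which sets this pattern. Over all genes tested, every KO animal lay above WT in 2.02% and below in 2.02%. Hbb-bs, Trim12a, Hsd3b1, Ednra, Itga4, Col3a1 and Hist1h4j passed the detection limit through KO animals alone, and Dpys through WT animals alone.

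Transcripts of steroid-producing Leydig cells were low in the sorted cells, and those of several enzymes were higher in KO. Hsd3b1, which encodes a 3-beta-hydroxysteroid dehydrogenase, had 3.17, 2.99, 1.62 and 2.16 cpm in KO, against 0.317, 0.303 and 0.263 cpm in WT animals. Its log2 fold change was 3.05 ± 0.41 (SE, unadjusted p = 2.1e-05, adjusted p = 0.0893). Cyp17a1, the enzyme that converts progestins to androgens, was under the detection limit with 44, 34, 36 and 29 counts in KO, against 0, 6 and 1 counts in WT animals (exact p = 0.0286). Cyp11a1, which cleaves the side chain of cholesterol, had 20, 28, 10 and 7 counts in KO, against 3, 4 and 0 counts in WT animals (exact p = 0.0571).

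Not every Leydig gene followed. Star, which moves cholesterol into mitochondria, overlapped between genotypes with means of 4.84 cpm in KO and 3.38 cpm in WT, and Insl3 had 2 counts in 1 KO animal and 0 in the others. The 10 Leydig markers summed to 36.5 to 46.1 cpm in KO and 33.8 to 36.5 cpm in WT animals (exact p = 0.0571), and most of that sum was the electron carrier Fdx1. Of 3 markers tested, 1 was called, Hsd3b1, where 0.29% of all genes tested were called higher. Hsd3b1 passed the detection limit through KO animals alone, so this count is no independent support.

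Some genes of the extracellular matrix were among the called genes. Of 16 listed genes tested, 4 were called, all higher in KO, where 0.29% of all genes tested were. All 16 had a positive log2 fold change, with a median of 0.62 against 0.01 for all genes. A low gene could pass the detection limit through KO animals alone, as Col3a1 and Col1a1 did. This sign count and median are therefore no independent support. The sum over the 25 listed genes overlapped, at 1813 to 2136 cpm in KO and 1759 to 1893 cpm in WT animals (exact p = 0.314). Col3a1, a fibrillar collagen, had 7.68, 5.67, 6.38 and 3.77 cpm in KO, against 0.581, 2.27 and 0.105 cpm in WT animals. Col1a1 had 4.34, 2.79, 3.83 and 2.21 cpm in KO, against 0.423, 1.87 and 0.316 cpm in WT animals. WT animal 876.4 was the highest of the WT group for both and still below every KO animal.

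Col4a1, a basement membrane collagen, had 7.40, 5.57, 4.41 and 4.49 cpm in KO, against 3.01, 2.63 and 1.10 cpm in WT animals, a log2 fold change of 1.28 ± 0.34. Fbn1, the microfibril protein fibrillin, had 6.95, 5.88, 5.28 and 5.87 cpm in KO, against 2.91, 2.83 and 3.74 cpm in WT animals. KO animals also all lay above WT animals for Col1a2 (log2 fold change 2.02, unadjusted p = 0.0208), Sparc (0.61, unadjusted p = 0.0313) and Col4a2 (0.63, unadjusted p = 0.0466), which were not called. The abundant matrix genes of the list differed little: Fn1 averaged 1314 cpm in KO and 1272 cpm in WT, and Lamb1 averaged 235 cpm in KO and 224 cpm in WT.

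Called receptors and secreted factors outside the matrix list were low in both genotypes too. Ednra and Wnt5a passed the detection limit through KO animals alone. Ednra, an endothelin receptor, had 2.504, 2.94, 2.38 and 1.33 cpm in KO, against 0.423, 0.606 and 0.421 cpm in WT animals. Wnt5a, a non-canonical Wnt ligand, had 4.12, 1.82, 2.44 and 1.94 cpm in KO, against 0.370, 0.960 and 1.10 cpm in WT animals. Igfbp5, which binds insulin-like growth factors, had 5.59 to 9.40 cpm in KO and 3.12 to 3.99 cpm in WT animals, and Ctgf, a matricellular growth factor, had 6.79 to 12.6 cpm in KO and 4.75 to 6.21 cpm in WT animals.

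Among 27 genes of cell adhesion and guidance, 3 were called, all higher in KO, and 22 had positive log2 fold changes with a median of 0.13. Over all genes tested, 0.29% were called higher and 51.6% had a positive log2 fold change. One of the called genes, Itga4, passed the detection limit through KO animals alone. Itga4, the integrin alpha 4 subunit, had 2.89, 2.99, 1.10 and 1.94 cpm in KO, against 0.528, 0.606 and 0.421 cpm in WT animals, a log2 fold change of 2.10 ± 0.45. Itga9 had 6.23, 6.74, 3.71 and 4.04 cpm in KO, against 1.43, 2.02 and 2.42 cpm in WT animals. Sema5a, a semaphorin, had 11.2, 7.40, 5.97 and 12.1 cpm in KO, against 3.28, 3.59 and 5.42 cpm in WT animals. Snhg18, a long noncoding RNA, was at 1.94 to 3.42 cpm in KO and 0.845 to 1.62 cpm in WT animals. Its gene lies beside Sema5a on chromosome 15 on the opposite strand, with the starts of both genes next to each other. Itgb1, Itgav and Cdh1, adhesion genes that gonocytes express far more, had log2 fold changes of 0.02, 0.00 and 0.13 and were not called.

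**Figure D3:**
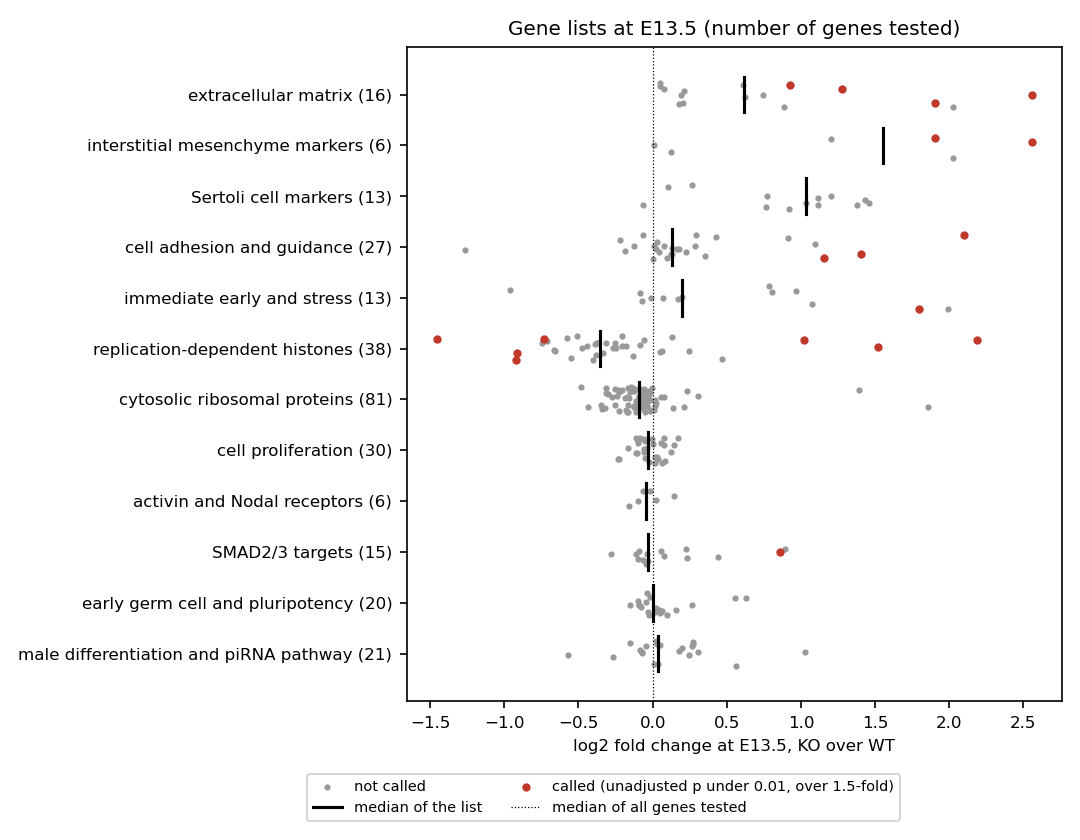
Log2 fold change at E13.5 (KO over WT) of each tested gene in 12 lists, with called genes in red, the list median as a black bar and the median of all genes as a dotted line. Matrix genes lie to the right of 0 in all 16 cases and 30 of 38 histone genes lie to the left, while the medians of the proliferation, receptor and germ cell lists lie between -0.04 and 0.04. Some matrix and marker genes passed the detection limit through KO animals alone.

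Markers of other testis cells were also higher in several KO animals. Of 6 interstitial mesenchyme markers tested all 6 had positive log2 fold changes and 2 were called, both collagens that the matrix list also holds. The shares over all genes tested were 51.6% positive and 0.29% called higher. Both collagens passed the detection limit through KO animals alone, so this sign count is no independent support. The mesenchymal proteoglycan Dcn had 31, 33, 28 and 18 counts in KO, against 0, 14 and 1 counts in WT animals (exact p = 0.0286), and the receptor Pdgfra had 2.16 to 4.23 cpm in KO and 0.789 to 2.27 cpm in WT animals, which overlapped. The 12 mesenchyme markers summed to 206 to 343 cpm in KO and 225 to 234 cpm in WT animals, of which Ptch1 made up most. Lum and Tcf21 had 11 or fewer counts in every animal. None of the 12 was at 0 throughout.

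Sertoli cell markers were variable in KO. Of 13 tested, 12 had positive log2 fold changes, against 51.6% of all genes tested. Their median was 1.04, and none was called. Dhh and Gata4 passed the detection limit through KO animals alone, so this sign count is no independent support. Amh, the anti-Müllerian hormone gene, had 3.67, 1.87, 0.754 and 8.64 cpm in KO, against 2.64, 0.202 and 2.00 cpm in WT animals, and Sox9 followed the same order of animals. Animal 928.1 was highest, while 832.1 lay below most WT animals. The 18 Sertoli markers summed to 114 to 199.95 cpm in KO and 97.0 to 132 cpm in WT animals (exact p = 0.286).

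The 10 macrophage markers summed to 4.76 to 6.59 cpm in KO and 2.68 to 3.74 cpm in WT animals (exact p = 0.0286), with C1qa at 0 in all 7, and only Cd68 was tested (log2 fold change 0.76, unadjusted p = 0.0155). Endothelial markers overlapped (95.4 to 168 cpm in KO, 109 to 158 cpm in WT). The part of these cell types in the matrix, adhesion and Leydig genes was not tested.

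Of 13 immediate early and stress genes tested, 1 was called, the transcription factor gene Fos. It had 9.74, 12.9, 8.64 and 33.1 cpm in KO, against 5.44, 3.89 and 4.63 cpm in WT animals, a log2 fold change of 1.80 ± 0.48 (unadjusted p = 0.00489). Klf6, a called zinc finger factor gene outside that list, had 21.0, 26.5, 18.7 and 33.1 cpm in KO, against 13.4, 14 and 14.7 cpm in WT animals. Animal 928.1 was the highest for both. Jun (log2 fold change 0.97, unadjusted p = 0.0144) and Egr2 (0.78, unadjusted p = 0.083) were not called, and Dusp1 had means of 43.5 cpm in KO and 44.0 cpm in WT. The list had 9 positive and 4 negative log2 fold changes with a median of 0.20, and in 1 gene every KO animal lay above and in 1 below the WT animals. Over all genes tested, 0.29% were called higher and 51.6% were positive. Every KO animal lay above WT in 2.02% of all genes tested, and below in 2.02%.

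Histone genes of the large cluster on chromosome 13 made up 7 of the 47 called genes and lay in both directions. These genes supply histones during DNA replication, and their messages end in a stem loop in place of a poly(A) tail. Of 38 histone genes tested, which include 3 on other chromosomes, 30 had a negative log2 fold change. The median of the 38 was -0.35. In 11 every KO animal lay below, and in 4 every KO animal above, the WT animals, against 2.02% of all genes tested each way. Hist1h4j and Hist1h4i passed the detection limit through KO animals alone, so the count above is no independent support. Summed over 57 histone genes the level was 495 to 787 cpm in KO and 822 to 962 cpm in WT animals, which did not overlap (exact p = 0.0571). The sum in KO was 0.784 times that in WT. Animal 831.2 was the lowest.

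Hist1h2bp lay farthest below WT. It had 7.51, 2.63, 4.18 and 8.80 cpm in KO, against 16.6, 15.9 and 14.7 cpm in WT animals, a log2 fold change of -1.46 ± 0.33 (unadjusted p = 0.00136). Hist1h3c had 5.56, 3.09, 4.81 and 5.04 cpm in KO, against 7.66, 9.30 and 9.15 cpm in WT animals. Hist1h4a had 4.12, 2.99, 4.18 and 5.43 cpm in KO, against 6.60, 9.04 and 7.94 cpm in WT animals. Hist1h2ak, the most abundant of the called histone genes, had 14.9, 11.7, 12.5 and 21.3 cpm in KO, against 20.5, 22.5 and 31.9 cpm in WT animals, and here 928.1 overlapped with WT.

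Hist1h4j, Hist1h4i and Hist1h2ab went the other way. Hist1h4j had 2.78, 1.93, 5.10 and 2.33 cpm in KO, against 0.634, 0.758 and 0.579 cpm in WT animals, a log2 fold change of 2.19 ± 0.42 (unadjusted p = 0.000348). Hist1h4i had 2.11, 3.95, 3.77 and 1.61 cpm in KO, against 1.16, 0.909 and 0.947 cpm in WT animals. Hist1h2ab had 5.90, 5.47, 11.3 and 5.81 cpm in KO, against 3.38, 3.39 and 3.74 cpm in WT animals. The most abundant H4 gene of the cluster, Hist1h4d, averaged 153 cpm in KO and 218 cpm in WT and narrowly missed the fold limit (log2 fold change -0.51, unadjusted p = 0.00769).

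By class, the median log2 fold change was -0.24 for 6 H1, -0.25 for 7 H2A, -0.35 for 12 H2B, -0.55 for 7 H3 and -0.23 for 6 H4 genes. All 7 H3 genes had negative values. Histone genes are near copies of each other, so single genes are uncertain. Of the 80-base windows of their transcripts, 54.8% in Hist1h2ab, 36.4% in Hist1h2bp, 34.8% in Hist1h4a, 21.3% in Hist1h4j and 20.2% in Hist1h4i also occur in other genes.

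Promoters of the 4 lower and 3 higher histone genes are shown since these genes share a cluster and differ in direction. Each is the 100 bases before the start (RefSeq, GRCm38.p6), with CCAAT and TATAAA on either strand in capitals. CCAAT stands in 84.8% and TATAAA in 39.4% of the 33 promoters of tested histone genes that were matched, against 18.9% and 5.56% of all promoters. The lower genes come first.
Hist1h2bp, chr13:21787388-21787487, plus strand: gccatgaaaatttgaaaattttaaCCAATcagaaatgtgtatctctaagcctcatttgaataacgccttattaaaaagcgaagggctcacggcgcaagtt
Hist1h3c, chr13:23745522-23745621, minus strand: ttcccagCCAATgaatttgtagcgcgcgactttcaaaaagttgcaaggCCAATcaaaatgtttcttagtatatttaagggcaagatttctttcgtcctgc
Hist1h4a, chr13:23761250-23761349, minus strand: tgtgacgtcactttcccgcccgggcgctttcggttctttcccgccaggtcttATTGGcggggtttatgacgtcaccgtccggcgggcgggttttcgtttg
Hist1h2ak, chr13:21753913-21754012, minus strand: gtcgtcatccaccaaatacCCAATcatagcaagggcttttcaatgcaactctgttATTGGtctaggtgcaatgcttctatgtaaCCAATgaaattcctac
Hist1h4j, chr13:21734934-21735033, plus strand: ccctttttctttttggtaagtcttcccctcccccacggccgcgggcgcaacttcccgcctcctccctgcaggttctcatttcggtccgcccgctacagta
Hist1h4i, chr13:22041363-22041462, minus strand: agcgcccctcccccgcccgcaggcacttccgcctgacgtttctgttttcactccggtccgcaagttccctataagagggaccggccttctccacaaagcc
Hist1h2ab, chr13:23750988-23751087, plus strand: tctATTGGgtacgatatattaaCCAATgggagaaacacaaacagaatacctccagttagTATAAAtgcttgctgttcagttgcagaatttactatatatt
All 4 lower genes and Hist1h2ab hold CCAAT, and neither higher H4 gene holds these letters in this window. Hist1h4j and Hist1h4i passed the detection limit through KO animals alone, so no link of letters and direction can be drawn. A match of letters is a description and not a bound site.

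The knocked-out gene lies on the same chromosome, which was why position was examined. Chromosome 13 held 8 called genes of 480 tested (1.67%), more than any other chromosome. The next were chromosome 15 with 5 of 446 (1.12%) and chromosome 1 with 5 of 835 (0.599%). All 5 called genes of chromosome 15 lay between 27466677 and 39857470, and no cause of this was tested. Within 5 Mb of Inhba none of 30 genes was called. All 7 called genes from 5 to 10 Mb away were histone genes, out of 33 histone genes placed there, and none of the 35 other genes in that range was called. Tested genes with no position in the annotation used are not in these counts. Klf6, between 10 and 20 Mb away, was the last, and none of 353 genes beyond was called.

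**Figure D4:**
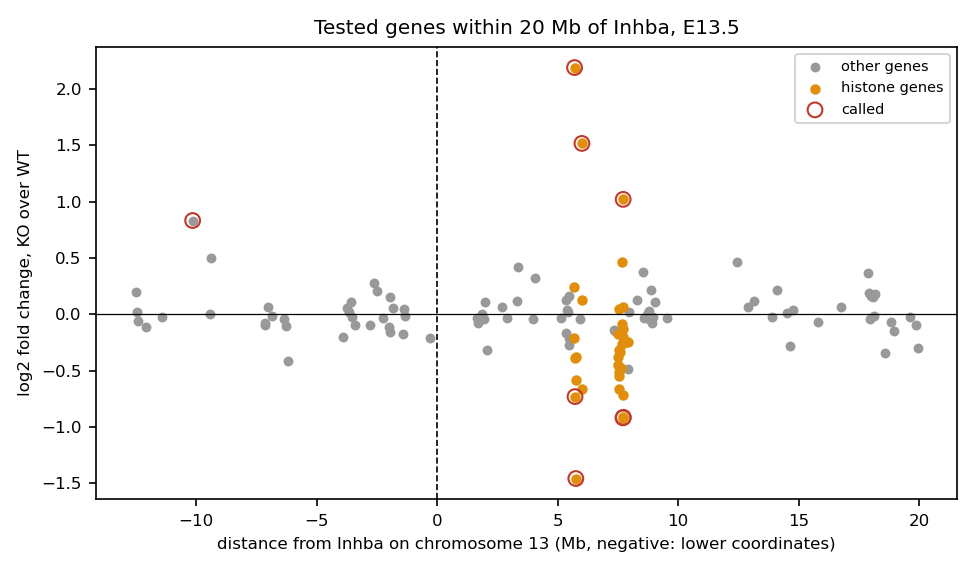
Log2 fold change (KO over WT, E13.5) of tested genes within 20 Mb of Inhba on chromosome 13 against their distance from Inhba in Mb, with histone genes in orange and called genes ringed. No gene within 5 Mb of Inhba is called, and the called genes are the histone genes at 5 to 10 Mb and Klf6 on the other side.

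Other genes were lower in KO without a shared list. Pusl1, a pseudouridine synthase, had 4.28, 1.82, 4.00 and 3.32 cpm in KO, against 7.82, 9.55 and 11.6 cpm in WT animals, a log2 fold change of -1.54 ± 0.27 (unadjusted p = 0.000213, adjusted p = 0.55). Its transcripts share 15.4% of their windows with the neighbour Ints11. Dpys, which breaks down pyrimidines, had 0.612, 0.456, 1.33 and 1.44 cpm in KO, against 2.91, 2.32 and 2.89 cpm in WT animals. Copz2, a coat protein gene, had 0.890 to 1.62 cpm in KO and 2.43 to 3.94 cpm in WT animals. 9530077C05Rik had 5.23, 4.26, 10.6 and 4.37 cpm in KO, against 12.6, 14.1 and 21.8 cpm in WT animals.

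Among further higher genes, Gng13, a G protein gamma subunit, had 5.40, 6.84, 4.06 and 6.98 cpm in KO, against 0.634, 2.17 and 0.368 cpm in WT animals. Its transcripts share 40.5% of their windows with the overlapping gene Chtf18, whose reads cannot be told apart from it without strand. Atp10d, annotated as a polymorphic pseudogene of a phospholipid transporter, had 23.9, 25.3, 17.5 and 27.5 cpm in KO, against 6.97, 8.24 and 13.7 cpm in WT animals. Sh3bp4, an endocytosis regulator, had the highest KO mean of the called genes, with 58.1, 37.6, 32.5 and 33.9 cpm in KO, against 15, 29.3 and 16 cpm in WT animals. Fscn1, which bundles actin, had 15.4 to 18.2 cpm in KO and 9.77 to 12 cpm in WT animals. Ank, a phosphate transporter, had 7.36 to 8.26 cpm in KO and 3.38 to 5.25 cpm in WT animals.

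The signalling genes of activin and Nodal were not called in either direction, among 3 ligands, 6 receptors, 4 SMAD factors and 13 inhibitors tested. The type II receptor Acvr2a averaged 47.1 ± 3.1 cpm in KO and 42.7 ± 1.5 cpm in WT (SD, n = 4 and 3), and Acvr2b averaged 15.8 ± 3.1 cpm in KO and 17.6 ± 1.8 cpm in WT. Smad2 had a log2 fold change of 0.05 and Smad4 of -0.03. Nodal had 10.8, 12, 15.8 and 21.0 cpm in KO, against 14.8, 14.6 and 13.2 cpm in WT animals, and its inhibitor Lefty1 had 39.2, 46.5, 60.7 and 62.0 cpm in KO, against 58.8, 73.0 and 59.1 cpm in WT animals. The smallest p was that of Gdf3, a Nodal-related ligand, at 21.0 ± 4.2 cpm in KO and 29.3 ± 1.0 cpm in WT (log2 fold change -0.48, unadjusted p = 0.00946, under the fold limit). Of 15 SMAD2/3 target genes tested, 1 was called, Ctgf, where 0.29% of all genes tested were called higher. Their median was -0.03.

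Lists of germ cell genes had medians near 0. None of 20 early germ cell and pluripotency genes, 21 male differentiation and piRNA genes, 17 meiosis genes or 30 proliferation genes was called. Their median log2 fold changes were 0.00, 0.04, -0.08 and -0.03. Pou5f1, a pluripotency factor, averaged 124 ± 19 cpm in KO and 132 ± 6 cpm in WT (SD, n = 4 and 3), and Top2a, a topoisomerase of dividing cells, averaged 2830 ± 352 cpm in KO and 2528 ± 80 cpm in WT. Nanos2, which sets the male germ cell fate, averaged 11.9 ± 10.5 cpm in KO and 5.70 ± 1.73 cpm in WT and overlapped between genotypes (log2 fold change 1.028, unadjusted p = 0.119). The 81 cytosolic ribosomal protein genes had a median of -0.09, 69 negative values and no called gene. Of 17 imprinted genes tested 14 had positive log2 fold changes with a median of 0.22, and none was called. Of 17 interferon response genes Trim12a alone was called, and the median was 0.12. Trim12a passed the detection limit through KO animals alone. Over all genes tested, 0.29% were called higher and 51.6% had a positive log2 fold change.

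At E15.5 the called genes did not keep their direction as a group. Of 47, 39 were tested at E15.5 and 15 of these had the same sign, while 51.0% of the 12167 genes tested at both ages did. None of them passed the adjusted threshold at E15.5, where 1 gene of 15209 did (0.00658%). For the 33 higher genes the median log2 fold change was -0.27 at E15.5, and 11 kept the sign. For the 6 lower genes it was -0.16, and 4 kept the sign.

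Atp10d (log2 fold change 0.65 at E15.5, unadjusted p = 0.0275), Cthrc1 (0.80, unadjusted p = 0.0429) and Zfp36 (0.51, unadjusted p = 0.045) kept the sign at an unadjusted p under 0.05. Snhg18 turned to -0.71 (unadjusted p = 0.0315). Matrix genes had a positive log2 fold change in 16 of 16 cases at E13.5 and in 4 of 16 at E15.5, where their median was -0.22. These 16 were chosen by the detection limit at E13.5, which some passed through KO animals alone. Col3a1 had 10.4, 2.83, 8.39 and 2.34 cpm in E15.5 KO, against 10.4, 5.59, 9.11 and 4.97 cpm in E15.5 WT animals. Ednra had 3.84, 2.11, 4.49 and 1.59 cpm in E15.5 KO, against 5.85, 2.61, 3.33 and 4.55 cpm in E15.5 WT animals. For both genes the E15.5 groups overlapped.

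Histone levels were far lower at E15.5, with sums of 83.6 to 144 cpm in KO and 106 to 177 cpm in WT animals. Of the 7 called histone genes, Hist1h2ak alone was tested there. The interaction of genotype and age was tested over 15841 genes, and none passed an adjusted p under 0.05 (0% called, edgeR, smallest adjusted p = 0.324). In that edgeR test 966 genes (6.1%) had an unadjusted p under 0.05. In limma-voom 0 genes passed the adjusted threshold and 567 had an unadjusted p under 0.05. For 26 of the 47 called genes the interaction had an unadjusted p under 0.05. These genes were chosen for their E13.5 difference, which is part of the interaction, so this count is no independent evidence.

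**Figure D5:**
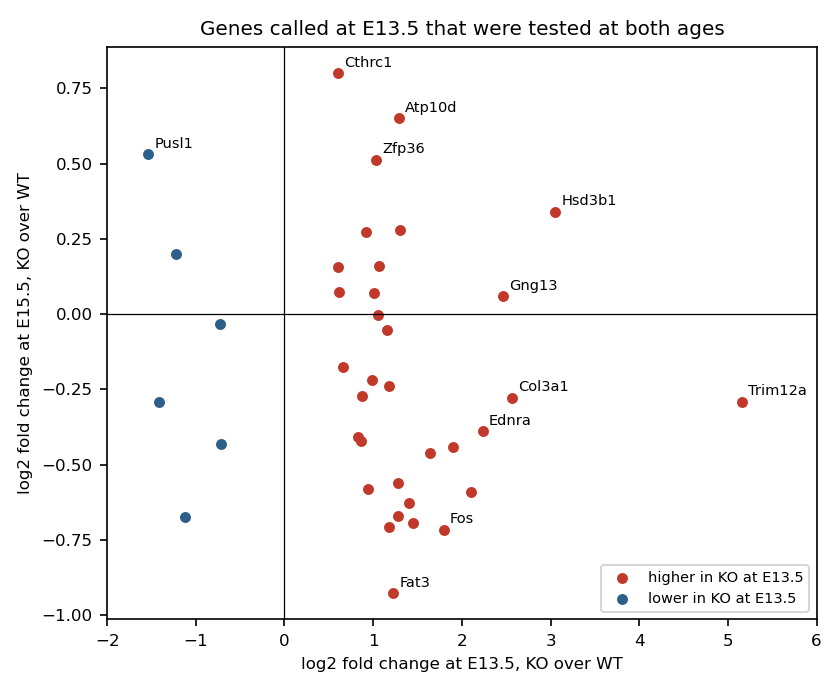
Log2 fold change (KO over WT) at E13.5 on the x axis and at E15.5 on the y axis for the 39 called genes tested at both ages, red if higher and blue if lower in KO at E13.5. Of 33 red points 11 lie above 0 at E15.5, and of 6 blue points 4 lie below 0.

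Which genes were called depended on the animals. Without WT animal 803.2 no gene passed the adjusted threshold (smallest adjusted p = 0.0741), and 18 higher and 6 lower genes were called, with 23 of the 24 among the 47. Without KO animal 928.1, 58 higher and 22 lower genes were called, and 42 of the 47 remained. Without WT animal 876.4, 7 genes passed the adjusted threshold, which were Col1a2, Gm14567, Gng13, Hbb-bs, Rpl30, Rps2 and Trim12a. Without WT animal 900.2 these were Hbb-bs, Myo7a, Rplp0-ps1 and Trim12a. Without KO animal 696.6 Asns and Ppfibp2 joined Hbb-bs and Trim12a.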

How the data were processed

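RNA of gonocytes sorted by FACS was amplified from 2-20 ng with SPIA kits (Trio RNA-Seq or RNA-Seq V2, which kit served which sample is not given in the sources used here) and sequenced as 80 base single reads. Whole-number read counts were deposited by the authors, with no scaling. Reads had been aligned to GRCm38 by STAR 2.5.2b within RNAsik, then assigned to genes by featureCounts of Subread 1.5.2. FastQC 0.11.5, MultiQC 1.0 and Picard 2.26.3 are also named in the submitters' processing notes. How 2 records per animal became 1 column is not stated.

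Levels are cpm computed here over all 27633 genes. Genes above about 2.4 cpm in at least 2 of the 7 animals were tested with the robust quasi-likelihood test of edgeR 4.0.16 (R 4.3.3, TMM, change beyond 1.5-fold), after the scripts had been tested on simulated data. Alternatives used limma 3.58.1 and DESeq2 1.42.0. Single values had exact permutation tests, two-sided. P-values measure the spread between embryos. Positions are from GENCODE M21 (GRCm38). Shared windows were sought on either strand in its transcripts, not in the genome.

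Members, gene lists and the rule for named genes were chosen with earlier results of these data known. Named were Inhba, genes past the adjusted threshold, the 12 largest rises and falls without overlap, up to 4 tested members of each list by p and every called one, called genes of chromosomes 1, 13 and 15, and called genes that the study listed. Other names were chosen after their values were seen. Most predicted genes were not named. The Inha animals and the excluded WT sample were not used here.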

Additional observations from a re-analysis of the deposited data

Results flagged for a closer look

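In 3 of 57 gaps tested among the 4 KO animals, 1 animal stood far from the others, as chance does in about 1 group of 20. The values are the gap to the nearest animal divided by the range of the group. KO animal 832.1 had the highest Hist1h2ab level, 11.3 cpm against 5.47 to 5.90 cpm in the other KO animals (0.926). The same animal had the highest level of 9530077C05Rik, 10.6 cpm against 4.26 to 5.23 cpm (0.846). For the membrane-binding protein gene Anxa6, KO animal 696.6 stood apart (0.849). The 3 WT animals are too few for this check.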

How the results depend on the processing

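No paired analysis was possible because E13.5 KO and WT animals share no replicate numbers. In the Inha titles the number before the point marks a litter. If it does so here, E15.5 KO 855.1 and WT 855.2 are littermates, as are KO 1052.2 and 1052.4, which the E15.5 and interaction fits leave out of account. Against 2 genes at an adjusted p under 0.05, no filter gave 6, the filterByExpr filter 4, DESeq2 14, limma-voom 1 and the fit of all 15 animals 0. Against 37 higher genes, no filter gave 117, filterByExpr 81 and DESeq2 61. Against 10 lower genes, no filter gave 20 and a test with no fold limit 19. Leaving out 1 animal gave 0 to 7 genes at an adjusted p under 0.05, 18 to 58 higher and 6 to 22 lower genes (56 higher without KO animal 832.1, 21 lower without 696.6). Genes with an interaction of genotype and age numbered 0 to 2 without 1 animal: Rps2 without WT E13.5 animal 876.4, and Rps3a1 and Rps3a2 without WT E15.5 animal 855.2. Called genes with the same sign at E15.5 numbered 15 of 39, and 7 of 19 to 30 of 64 without 1 animal (23 of 50 without 696.6), shares of 30.6% to 46.9%. The cause of these differences was not tested. Of the 47 called genes 39 had a value in 14 settings and 8 in 12. In every setting with a value 12 were called, 8 of them in all 14. None turned its direction in these settings, and 127 of 642 pairs of gene and setting were not called. The fit of all 15 animals shared 26 of the 47. Most called genes lie at a few cpm, where counting error is large.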

Other observations

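Some genes were on in some animals and nearly off in others. Of the genes tested, 104 had a highest animal at 10 times the lowest or more, and the highest was a KO animal in 85 and a WT animal in 19. Groups did not overlap in 11 of the 104, while 2.02% of all genes tested had every KO animal above and 2.02% every KO animal below the WT animals. The split of 85 and 19 is a count over 4 KO and 3 WT animals, with no test.

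Myo7a, a myosin gene at 98051060 to 98119524 on chromosome 7 (GRCm38), had 42.4, 60.1, 28.9 and 36.0 cpm in KO, against 1.11, 1.36 and 37.4 cpm in WT animals. At E15.5 it had 6.16, 4.03, 4.72 and 37.3 cpm in KO, against 85.9, 59.6, 5.80 and 78.7 cpm in WT animals. The E15.5 animals with low Myo7a, 1052.2, 1052.4, 855.1 and 941.3, were those with Trim12a at 0.107 to 0.172 cpm. At E13.5 WT animal 900.2 had high Myo7a and low Trim12a.

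The mitochondrial gene mt-Nd3 had 45.3, 0.101, 0.232 and 48.7 cpm in KO, against 50.3, 45.5 and 43.1 cpm in WT animals. Gm28438, whose transcript shares 98.9% of its windows with it, had 0.612, 23.2, 22.2 and 0.277 cpm in KO, against 2.43, 0.303 and 0.210 cpm in WT animals.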
